A study of Solanum lycopersicum with 24 samples.

Results

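The skin (epicarp) of purple tomato fruit that had developed in darkness and was then lit for 2 d was set against the skin of fruit that had developed in light. The comparison holds 6 of the 24 RNA-seq libraries of the series, chosen by their titles, with 3 libraries of epicarp at 2 d and 3 of epicarp control. All groups are Solanum lycopersicum of the genotype MT-Aft/atv/hp2, so the control carries the same alleles as the lit fruit. Aft is an introgressed allele with a working MYB activator of pigment genes, atv is a loss of the MYB-ATV repressor, and hp2 is a lesion of DET1 that exaggerates light responses. For the 2 d group, flowers were covered with foil at anthesis, the cover stayed on for 30 d, and the fruit was collected 2 d after it came off. Control fruit had 30 d of light, which makes the 2 d fruit 2 d older if control fruit was collected at the end of those days. Darkness, the foil and its removal, and this age gap cannot be told apart in the design. The skin of fruit lit for 5 d after the same cover (3 libraries) entered the same fit and is given beside some results. Whether the replicates are separate plants or fruits is not in the labels, and p-values therefore measure the spread among these libraries only, which may be technical.

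Anthocyanins are purple flavonoid pigments made from phenylalanine through the phenylpropanoid and flavonoid pathways and stored in the vacuole. In tomato skin their genes are switched on by a complex of MYB, bHLH and WD40 proteins, and light is needed for it. Skin also carries the cuticle, a layer of cutin polyester and wax that epidermal cells secrete, and in young fruit it holds green plastids that photosynthesise.

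The 6 libraries held 18618384 to 21871092 reads assigned to genes, and 19427 to 20219 genes had at least 1 read. Where a gene has 0 reads in a library, counting error allows up to 3, which is 0.137 to 0.161 CPM (reads per 1000000 assigned reads). Reads are not independent molecules, so this limit covers counting error only. Correlations of log2 CPM were 0.979 to 0.983 within the 2 d group and 0.972 to 0.978 within control, against 0.851 to 0.886 between the groups. Replicate 3 of the 5 d group stood apart from its own group. It correlated at 0.927 to 0.945 with control, whereas replicates 1 and 2 of 5 d gave 0.86 to 0.913. It enters the estimate of the spread for every gene, so main counts are also given without it. Among markers of the tissue, all 10 tested genes of the epidermis and cuticle list had reads in all 3 control libraries. Their summed level was 636 to 749 CPM at 2 d, against 4816 to 7838 CPM in control. In bulk tissue, fewer cells of a type and less RNA per cell cannot be told apart.

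Skin lit for 2 d differed from light-grown skin across much of the transcriptome, in both directions. Of 17945 genes tested, 3898 (21.7%) were higher at 2 d and 4128 (23%) were lower, at a Benjamini-Hochberg adjusted p under 0.05 from edgeR's quasi-likelihood test. Together these were 44.7% of the genes tested. At least 2-fold changes were reached by 1461 genes upward (8.14%) and by 2059 genes downward (11.5%). The median log2 change over all genes tested was -0.02. Without replicate 3 of the 5 d group in the fit, 4300 genes were higher and 4315 lower. Groups did not overlap in 3750 of the genes that rose and 4099 of those that fell; over all genes tested, the 3 libraries at 2 d lay above all 3 control libraries in 24.5% and below them in 33.7%. These shares are the background for the counts of gene groups below. Overlap was judged on CPM, which leaves out the scaling factors used in the test. Those factors were 0.971 to 1.01 at 2 d and 1.02 to 1.05 in control. Without them, levels at 2 d come out lower relative to control, which bears on the gap between 24.5% and 33.7%. Changes are log2 values of 2 d over control ± standard error, and levels of single libraries are given in the order of the replicate numbers.

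**Figure D1:**
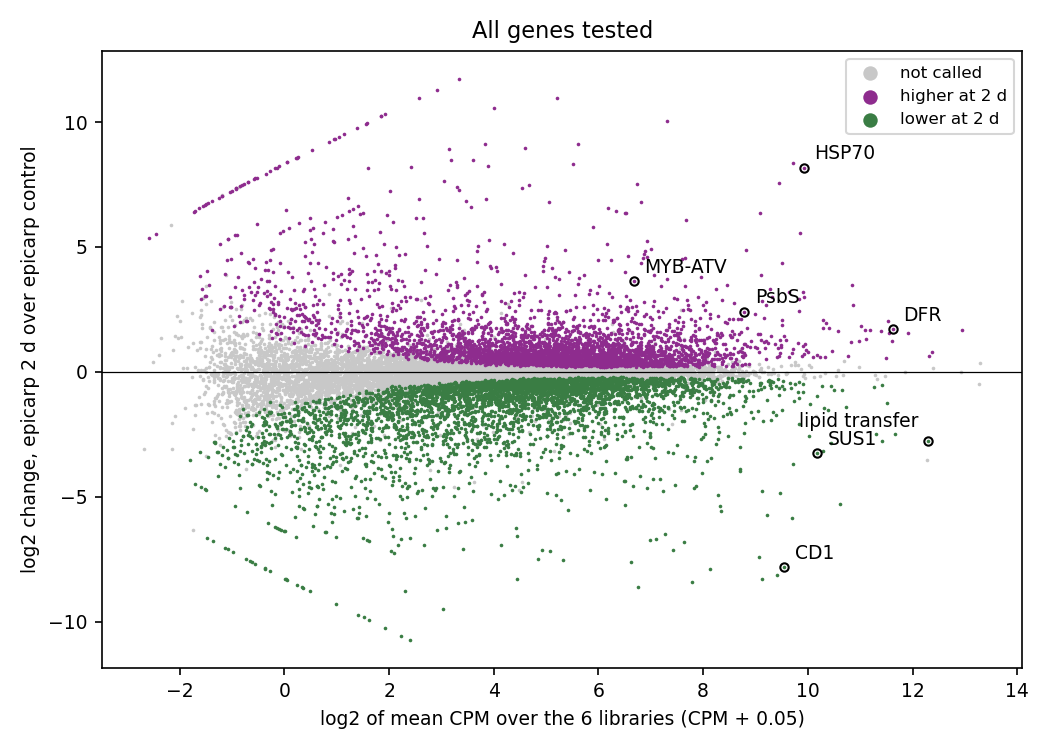
Log2 change (epicarp 2 d over epicarp control) of each of the 17945 genes tested against the log2 of its mean CPM over the 6 libraries. Purple genes (3898) were higher at 2 d, green genes (4128) were lower, grey genes were not called, and circles mark 7 genes described in the text; the straight rows of points at the edges are genes with 0 reads in 1 group, among them 51 higher and 26 lower genes, whose fitted change is no bound.

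The pigment pathway stood above its level in light-grown skin at every step that was tested. All 14 anthocyanin biosynthesis genes tested on counts rose (the 15 listed include F3'5'H, given below from TPM), 13 of them at least 2-fold, against 21.7% of all genes that rose. Their median log2 change was 1.66, against -0.02 over all genes. Summed over these genes, the reads came to 46609, 50974 and 48903 CPM at 2 d, against 19176, 20029 and 17742 CPM in control. The replicates were tight, with a median coefficient of variation of 5.48% at 2 d and 10.1% in control.

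The early flavonoid enzymes all rose. Chalcone synthase builds the flavonoid skeleton, and its 2 genes rose by unequal amounts. CHS1 (Solyc09g091510.3) stood at 3835, 4335 and 3995 CPM at 2 d, against 1548, 1424 and 1158 CPM in control, a change of 1.63 ± 0.26 (edgeR adjusted p = 0.00104). CHS2 (Solyc05g053550.3) stood at 5506, 6334 and 6193 CPM at 2 d, against 3568, 4757 and 4017 CPM in control, a change of 0.62 ± 0.19 (edgeR adjusted p = 0.0215), the smallest of the 14. The groups did not overlap for either gene, although CHS2 lost its call when any of 4 single libraries was left out (replicates 2 and 3 at 2 d, replicates 1 and 3 of control; edgeR adjusted p up to 0.0706). Chalcone isomerase, which closes the central ring, had the largest change of the list: CHI (Solyc05g010320.4, chromosome 5 of build SL4.0, bases 4511004 to 4513638, plus strand) had 337, 454 and 527 CPM at 2 d, against 72.1, 83.8 and 60.4 CPM in control. Its change was 2.67 ± 0.36 (edgeR adjusted p = 0.000681), which is 6.38-fold. The non-catalytic CHI-like protein that assists chalcone synthase, CHIL (Solyc05g052240.3), rose by 1.77 ± 0.22 (edgeR adjusted p = 0.000223). F3H (Solyc02g083860.3), which hydroxylates the flavanone, had 5624, 5712 and 5640.4 CPM at 2 d, against 2169.6, 2119.9 and 1795 CPM in control and rose by 1.55 ± 0.26 (edgeR adjusted p = 0.00132). It is among the 10 genes of the whole table with the largest gain in CPM.

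Hydroxylation of the B ring decides the hue of the pigment. The 3′-hydroxylase F3'H (Solyc03g115220.5) had 431, 573 and 526 CPM at 2 d, against 93.1, 163 and 82.2 CPM in control, which is 2.25 ± 0.24 (edgeR adjusted p = 0.000161). F3'5'H (Solyc11g066580.3), which leads to the blue-purple delphinidin pigments, is in the TPM table and not in the count table. Its TPM (reads per kilobase of gene interval, scaled to the same total in each library) was 2033, 2427 and 2164 at 2 d, against 964, 1095 and 976 in control. The groups did not overlap. On the log2(TPM + 1) scale the change was 1.12 ± 0.30 (limma with trend, adjusted p = 0.016 over 17508 genes, of which 19.6% were higher). Without replicate 2 at 2 d its adjusted p was 0.0544, and without replicate 3 at 5 d it was 0.000223.

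Late steps rose together. DFR (Solyc02g085020.4, chromosome 2 of build SL4.0, bases 46065285 to 46067689, plus strand), the first enzyme committed to anthocyanins, had 4608, 5021 and 4719 CPM at 2 d, against 1641, 1544 and 1420.3 CPM in control, a change of 1.71 ± 0.23 (edgeR adjusted p = 0.000346). ANS (Solyc08g080040.4, chromosome 8 of build SL4.0, bases 61491075 to 61492935, minus strand), which makes the coloured anthocyanidin, had 4573, 5064 and 4434 CPM at 2 d, against 1307, 1187 and 1127 CPM in control, a change of 2.03 ± 0.29 (edgeR adjusted p = 0.000556). No library of 1 group overlapped the other for these genes. Both intervals share bases with a neighbouring gene, 195 bases at DFR and 276 bases at ANS, and whether counting used strand is not known here. Genes that decorate the pigment rose too. The 3-glucosyltransferase A3GT (Solyc10g083440.3) rose by 1.18 ± 0.21 (edgeR adjusted p = 0.00154) and the 5-glucosyltransferase 5GT (Solyc12g098590.3) by 1.25 ± 0.24 (edgeR adjusted p = 0.00242). The rhamnosyltransferase RT (Solyc09g059170.3) rose by 1.69 ± 0.21 (edgeR adjusted p = 0.000206) and the acyltransferase AAC (Solyc12g088170.2) by 1.83 ± 0.27 (edgeR adjusted p = 0.000689). For carriage into the vacuole, the glutathione transferase GST (Solyc02g081340.3) rose by 1.24 ± 0.24 (edgeR adjusted p = 0.00261), with 2805 ± 80.2 CPM at 2 d and 1248 ± 55.7 CPM in control (SD, n = 3 each). The anthocyanin permease MATE_03g025190 (Solyc03g025190.4) rose by 1.57 ± 0.22 (edgeR adjusted p = 0.000436), with 4372, 4507 and 4501 CPM at 2 d, against 1549, 1625 and 1550.2 CPM in control. Its libraries lay within a narrow band in each group and far apart between groups.

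At 5 d the pathway was nearer to control and more spread. DFR had 3719, 3214 and 1844 CPM at 5 d, AAC had 2411, 2098 and 1046 CPM and CHS1 had 2556, 2127 and 1182 CPM. In each of them replicate 3 was the lowest of the 5 d libraries. The change of 5 d over control, which shares the control libraries with the 2 d comparison, was 1.03 for DFR (edgeR adjusted p = 0.00737), 1.07 for AAC (edgeR adjusted p = 0.0132) and 0.60 for CHS1 (edgeR adjusted p = 0.0962).

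**Figure D2:**
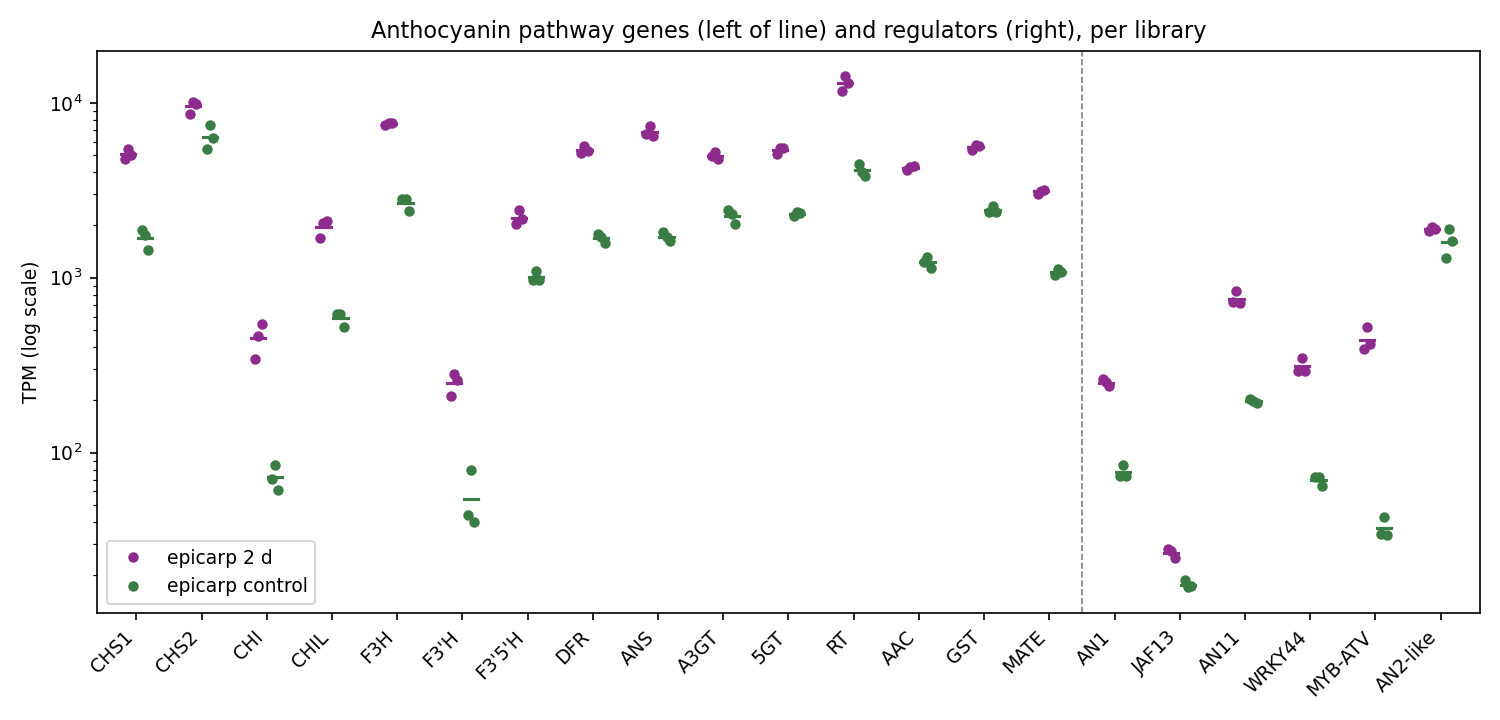
TPM (log axis) of 15 anthocyanin pathway genes in pathway order and of 6 regulators, 1 point per library, with epicarp 2 d in purple on the left of each pair, epicarp control in green on the right, and a bar at the mean of 3. Points of the groups are apart for every pathway gene and overlap for AN2-like.

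Upstream, transcripts of the genes that make precursors were higher at some gene copies and not at others. Precursors themselves were not measured. Of 15 early phenylpropanoid genes listed, 12 were in the count table and tested, of which 6 rose, each at least 2-fold, none fell and 6 were not called. Phenylalanine ammonia-lyase (PAL) removes ammonia from phenylalanine. PAL_10g086180 (Solyc10g086180.2) rose the most, with 1189, 1266 and 927 CPM at 2 d, against 174, 139 and 133 CPM in control, a change of 2.99 ± 0.31 (edgeR adjusted p = 0.00017). PAL_05g056170 (Solyc05g056170.3) had 2871, 3502 and 2989 CPM at 2 d, against 1248, 1334 and 1408 CPM in control, a change of 1.30 ± 0.23 (edgeR adjusted p = 0.00149). By contrast, PAL_09g007920 (Solyc09g007920.4) had 9636, 12977 and 10603 CPM at 2 d, against 8856, 8899.8 and 9157 CPM in control. Its libraries at 2 d all lay above control, but by little: 0.37 ± 0.22 (edgeR adjusted p = 0.2), which did not pass, whereas without replicate 3 at 5 d in the fit it was 0.39 (edgeR adjusted p = 0.0309). PAL_09g007900 (Solyc09g007900.5) had 997, 1285 and 1076 CPM at 2 d, against 1046, 1013 and 973 CPM in control, and the groups overlapped. PAL_09g007890 had 2.24, 4.32 and 2.87 CPM at 2 d, against 3.06, 2.4 and 3.66 CPM in control, a change of 0.12 ± 0.35 (edgeR adjusted p = 0.81). These tandem copies are close in sequence, and reads shared between them may be split uncertainly.

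The next step, cinnamate 4-hydroxylase, was raised at C4H_06g150137 (Solyc06g150137.1), with 1628, 1707 and 1217 CPM at 2 d, against 297, 290.3 and 295 CPM in control, a change of 2.44 ± 0.28 (edgeR adjusted p = 0.000241). Another copy, C4H_05g047530, had 7.96, 7.32 and 9.29 CPM at 2 d, against 13.5, 5.46 and 10.3 CPM in control, with overlapping groups. For 4-coumarate:CoA ligase, 3 of 4 genes rose: 4CL_06g068650 by 1.61 ± 0.27 (edgeR adjusted p = 0.00183), 4CL_03g117870 by 1.44 ± 0.13 (edgeR adjusted p = 4.26e-05) and 4CL_03g097030 by 1.42 ± 0.10 (edgeR adjusted p = 1.37e-05). The last of these, 4CL_03g097030, had 532, 601 and 481 CPM at 2 d, against 213, 219 and 203 CPM in control, and 189.6, 209 and 207 CPM at 5 d, where it was 0.02 from control (edgeR adjusted p = 0.89). The early phenylpropanoid list as a whole was not back at control at 5 d. Its genes summed to 29340, 25421 and 16120 CPM at 5 d and to 17395, 21926 and 17762 CPM at 2 d. In control the sum was 12069, 12071 and 12391 CPM. 4CL_12g042460 and PAL_03g042560 were low and not called, with changes of -1.46 ± 0.89 (edgeR adjusted p = 0.217) and 0.10 ± 0.69 (edgeR adjusted p = 0.922).

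Phenylalanine itself comes from the shikimate pathway of plastids. Of 24 tested genes of shikimate and aromatic amino acid synthesis, 10 rose and 4 fell, with a median log2 change of 0.37. Shikimate kinase (Solyc04g051860.3) had 511, 476 and 384 CPM at 2 d, against 94.5, 115 and 109.8 CPM in control, a change of 2.17 ± 0.16 (edgeR adjusted p = 1.37e-05). The enzyme after it, EPSP synthase (Solyc01g091190.3), which is the target of glyphosate, had 498, 558 and 573 CPM at 2 d, against 158, 133 and 139 CPM in control, a change of 1.99 ± 0.22 (edgeR adjusted p = 0.000159). Shikimate dehydrogenase (Solyc06g084460.4) rose by 1.60 ± 0.15 (edgeR adjusted p = 3.85e-05), and arogenate dehydratase (Solyc06g074530.1), which yields phenylalanine, rose by 1.57 ± 0.23 (edgeR adjusted p = 0.000804). In all 4 genes the libraries of the groups were apart. Aminodeoxychorismate synthase (Solyc04g049360.3), on the branch to folate, rose by 1.66 ± 0.12 (edgeR adjusted p = 1.12e-05), while the lyase after it on that branch (Solyc11g071280.2) fell by 1.90 ± 0.33 (edgeR adjusted p = 0.00124).

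The flavonol branch, which shares its precursors with anthocyanins, did not follow. Flavonol synthase FLS (Solyc11g013110.2) had 991, 1400.01 and 1304 CPM at 2 d, against 1415, 1518 and 1044 CPM in control, with overlapping groups and a change of -0.04 ± 0.17 (edgeR adjusted p = 0.873). The MYB factor that drives flavonol genes in tomato, MYB12 (Solyc01g079620.5), had 44.6, 42 and 51.8 CPM at 2 d, against 73.5, 85.3 and 63.4 CPM in control. It was lower in every library at 2 d, with a change of -0.62 ± 0.18 (edgeR adjusted p = 0.0189), which was lost without replicate 1 or 2 at 2 d or replicate 2 of control (edgeR adjusted p up to 0.0693).

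Among 7 tested regulators of the pathway, 5 rose and none fell, against 21.7% and 23% of all genes. MYB-ATV (Solyc07g052490.4, chromosome 7 of build SL4.0, bases 60912702 to 60913855, minus strand) encodes the small MYB repressor that atv inactivates, and its transcript remained measurable in this genotype. It had 168, 223 and 177 CPM at 2 d, against 15.2, 18.4 and 14.6 CPM in control, a change of 3.63 ± 0.25 (edgeR adjusted p = 1.92e-05) or 12.4-fold, the largest of the 7. WRKY44 (Solyc10g084380.1), a WRKY factor of the pigment network, had 289, 338 and 286 CPM at 2 d, against 74, 72 and 63.4 CPM in control, a change of 2.19 ± 0.14 (edgeR adjusted p = 7.42e-06). AN11 (Solyc03g097340.1), the WD40 partner, had 279.9, 318 and 271 CPM at 2 d, against 80.1, 75.8 and 73.6 CPM in control, a change of 1.99 ± 0.19 (edgeR adjusted p = 6.37e-05). The bHLH partner AN1 (Solyc09g065100.3) had 729.5, 696 and 658 CPM at 2 d, against 211, 237 and 206 CPM in control, a change of 1.74 ± 0.17 (edgeR adjusted p = 5e-05), whereas the other bHLH, JAF13 (Solyc08g081140.4), had 52, 49.7 and 45.2 CPM at 2 d, against 35.3, 31.3 and 31.6 CPM in control, a change of 0.65 ± 0.10 (edgeR adjusted p = 0.00058). In these 5 genes every library at 2 d lay above every control library.

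AN2-like (Solyc10g086290.3), the MYB activator linked to Aft, had 951, 987 and 961 CPM at 2 d, against 683, 982 and 831 CPM in control. The groups overlapped and the change was 0.29 ± 0.17 (edgeR adjusted p = 0.193), which did not pass; without replicate 3 at 5 d it was 0.31 (edgeR adjusted p = 0.0478). AN2 (Solyc10g086250.2) was at 0.0914, 0.141 and 0.924 CPM at 2 d, against 1.5, 0.647 and 1.37 CPM in control, a change of -1.55 ± 0.82 (edgeR adjusted p = 0.152). ANT1 had 0 reads in all 6 libraries, which allows up to 0.137 to 0.161 CPM, and so had ANT1-like. Neither passed the filter on low counts.

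Light-signalling genes moved by small amounts, mostly upward. Of 21 tested, 12 rose and 1 fell, and 2 of those that rose did so at least 2-fold. These were the B-box gene BBX20 (Solyc12g089240.2), with 37.3, 63.8 and 36 CPM at 2 d, against 8.11, 18.9 and 24.1 CPM in control (1.5 ± 0.51, edgeR adjusted p = 0.0484), and BBX24 (Solyc06g073180.3), with 338, 369 and 348 CPM at 2 d, against 136, 187 and 176 CPM in control (1.15 ± 0.11, edgeR adjusted p = 5.45e-05). B-box proteins act beside HY5 in light responses. BBX19 (Solyc01g110370.4) rose by less, with 15.3, 15.2 and 14.2 CPM at 2 d, against 7.52, 8.46 and 10.8 CPM in control, a change of 0.80 ± 0.15 (edgeR adjusted p = 0.00184). HY5 itself (Solyc08g061130.3), the bZIP factor that activates light-induced genes, had 21.2, 16.7 and 12.4 CPM at 2 d, against 22.8, 31.4 and 18.5 CPM in control. Those groups overlapped, and the change was -0.46 ± 0.24 (edgeR adjusted p = 0.144). Blue-light receptors rose: CRY1b by 0.84 ± 0.11 (edgeR adjusted p = 0.0002), CRY2 by 0.65 ± 0.09 (edgeR adjusted p = 0.000279) and CRY3 by 0.96 ± 0.11 (edgeR adjusted p = 0.000158), while CRY1a had a change of 0.02 ± 0.11 (edgeR adjusted p = 0.888). Phytochromes diverged. PHYA (Solyc10g044670.3) had 198, 186 and 177 CPM at 2 d, against 128, 127 and 125 CPM in control, a rise of 0.63 ± 0.08 (edgeR adjusted p = 0.000279). PHYB2 (Solyc05g053410.5), a red-light receptor, was the single gene of the list to fall, with 19, 19.8 and 19.4 CPM at 2 d, against 53.3, 48.3 and 53 CPM in control, a change of -1.34 ± 0.11 (edgeR adjusted p = 2.75e-05). PHYB1, PHYE and PHYF changed by -0.12, -0.22 and -0.07 on the log2 scale and were not called. The UV-B receptor UVR8 rose by 0.33 ± 0.11 (edgeR adjusted p = 0.0267). Of the repressors of light responses, COP1 rose by 0.34 ± 0.12 (edgeR adjusted p = 0.0457), COP1-like by 0.42 ± 0.11 (edgeR adjusted p = 0.0091) and DDB1 by 0.44 ± 0.10 (edgeR adjusted p = 0.00679), and DET1, the gene behind hp2, had a change of 0.07 ± 0.16 (edgeR adjusted p = 0.756). PIF1a rose by 0.65 ± 0.12 (edgeR adjusted p = 0.00202), while PIF3 and PIF4 had changes of 0.12 and -0.24 that did not pass. Leaving out single libraries ended the call of BBX20 in all 6 cases (edgeR adjusted p up to 0.144), of COP1 in 5 (all but replicate 1 at 2 d, up to 0.167) and of UVR8 in 4 (replicates 1 and 2 at 2 d, replicates 1 and 3 of control, up to 0.0893).

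Genes that shield plastids from excess light were above steady-light levels. Of 8 tested photoprotection and ascorbate genes, 7 rose and none fell. PsbS (Solyc06g060340.3, chromosome 6 of build SL4.0, bases 36000748 to 36003894, plus strand), which triggers the release of excess energy as heat, had 883, 747 and 583 CPM at 2 d, against 175, 129.6 and 132 CPM in control, a change of 2.41 ± 0.21 (edgeR adjusted p = 3.44e-05). Violaxanthin de-epoxidase VDE (Solyc04g050930.3) and zeaxanthin epoxidase ZEP (Solyc02g090890.4) run the xanthophyll cycle in opposite directions, and both rose, VDE by 1.23 ± 0.11 (edgeR adjusted p = 3.16e-05) and ZEP by 0.96 ± 0.09 (edgeR adjusted p = 3.4e-05). VDE had 90.6, 80.2 and 75.8 CPM at 2 d, against 34.7, 40.7 and 35.1 CPM in control. The copper-zinc superoxide dismutase CuZnSOD rose by 0.90 ± 0.12 (edgeR adjusted p = 0.000298), and the ascorbate enzyme GME1 by 0.67 ± 0.16 (edgeR adjusted p = 0.00901). The single member not called was the iron superoxide dismutase FeSOD, with 262, 226 and 277 CPM at 2 d, against 479.7, 181 and 358 CPM in control (chosen after its values were seen). Among 37 antioxidant genes drawn by description, 15 rose and 8 fell. Their shares were 40.5% and 21.6%, beside 21.7% and 23% of all genes, so the lower share was near the background. A gene described as a superoxide dismutase (Solyc09g082690.3) had the largest rise of those named, with 1885, 1650.3 and 1269 CPM at 2 d, against 248, 255 and 171 CPM in control, a change of 2.90 ± 0.22 (edgeR adjusted p = 1.84e-05). Its interval shares 513 bases with a neighbour. Cytosolic ascorbate peroxidase 1 (Solyc06g005160.4) went the other way, with 353, 346 and 404 CPM at 2 d, against 1018, 724 and 757 CPM in control, a change of -1.12 ± 0.18 (edgeR adjusted p = 0.000944). A different ascorbate peroxidase (Solyc09g007270.3) had 1101, 1013 and 1096 CPM at 2 d, against 425, 524 and 429 CPM in control (1.29 ± 0.11, edgeR adjusted p = 2.81e-05). Catalase, which removes the hydrogen peroxide of photorespiration, rose at the ethylene-responsive gene Solyc02g082760.3 by 1.26 ± 0.16 (edgeR adjusted p = 0.000272), and a peroxiredoxin (Solyc10g082030.2) rose by 1.30 ± 0.15 (edgeR adjusted p = 0.000129).

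Photosynthesis genes were raised among the subunits of the photosystems, while antenna genes were mixed. Of 34 tested photosystem subunit genes, 21 rose and none fell (median log2 change 0.67). Psb28 (Solyc09g064500.3) had 116, 126 and 112 CPM at 2 d, against 31.5, 22.3 and 27.2 CPM in control, a change of 2.20 ± 0.14 (edgeR adjusted p = 6.07e-06). A 10 kDa polypeptide of photosystem II (Solyc12g017250.2) had 216, 163 and 159 CPM at 2 d, against 20.4, 37.7 and 33 CPM in control, a change of 2.63 ± 0.28 (edgeR adjusted p = 0.000216). The steepest change of the list was at a gene for a 5 kDa photosystem II protein (Solyc01g008510.3), which had 30.7, 13.7 and 14 CPM at 2 d, against 0.161, 0.0462 and 0.137 CPM in control (7.42 ± 0.93, edgeR adjusted p = 0.000463). Among 30 tested genes of chlorophyll-binding antenna proteins, 7 rose and 5 fell, shares of 23.3% and 16.7% that lie near the background of 21.7% and 23%. Cab-5 (Solyc12g006140.2) had 83.4, 64.3 and 61.2 CPM at 2 d, against 20.5, 7.07 and 12.8 CPM in control (2.44 ± 0.34, edgeR adjusted p = 0.000876), and another antenna gene (Solyc03g005770.4) had 11.3, 5.49 and 17.5 CPM at 2 d, against 61.3, 42.2 and 74.7 CPM in control (-2.32 ± 0.54, edgeR adjusted p = 0.0109). The groups were apart for both, in opposite directions. The antenna gene with the largest change (Solyc12g009200.2) had under 1 CPM in control, with 9.01, 7.98 and 7.34 CPM at 2 d, against 0.483, 0.0925 and 0.824 CPM in control (4.17 ± 0.54, edgeR adjusted p = 0.000279). The antenna calls came to 6 to 10 higher and 2 to 5 lower when single libraries were left out. Antenna genes are near-identical copies, so reads may be split between them.

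Of 21 tested genes of carbon fixation and photorespiration, 12 rose and 1 fell. Rubisco activase (Solyc09g011080.3), which keeps the carbon-fixing enzyme active, had 178, 126 and 127 CPM at 2 d, against 34.6, 29.7 and 22.4 CPM in control, a change of 2.38 ± 0.23 (edgeR adjusted p = 8.87e-05). Serine hydroxymethyltransferase (Solyc12g098490.2), of photorespiration, had 638, 964 and 923 CPM at 2 d, against 162, 182 and 193 CPM in control, a change of 2.30 ± 0.27 (edgeR adjusted p = 0.000272). A glycolate oxidase gene (Solyc10g007600.3), the peroxisomal step of photorespiration, was nearly silent in control: it had 269.7, 119 and 243 CPM at 2 d, against 0.269, 1.71 and 1.51 CPM in control, a change of 7.53 ± 0.85 (edgeR adjusted p = 0.000521), and 220.3, 93.4 and 409 CPM at 5 d. Downstream of it, the hydroxypyruvate reductase HPR3 is listed at 2 genes, and Solyc01g093990.3 rose by 1.90 ± 0.36 (edgeR adjusted p = 0.00245). The other (Solyc01g162770.1) had 2.1, 2.06 and 0.827 CPM at 2 d, against 0 reads in the 3 control libraries, at least 11.4-fold higher with control set to 3 reads per library. The gene that fell is described as a small subunit of Rubisco (Solyc07g017950.3), with 0.412, 0.282 and 0.0972 CPM at 2 d, against 47.3, 25.8 and 31.7 CPM in control, a change of -6.94 ± 1.78 (edgeR adjusted p = 0.0185). That call was lost without any one of the 3 libraries at 2 d (edgeR adjusted p up to 0.0649).

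Chlorophyll turnover genes rose on both sides. Of 14 tested genes, 8 rose and 1 fell. On the synthesis side the magnesium chelatase subunit CHLH rose by 0.95 ± 0.15 (edgeR adjusted p = 0.000708) and the light-dependent protochlorophyllide reductase POR_07g054210 by 0.96 ± 0.12 (edgeR adjusted p = 0.000222). On the breakdown side SGR1 (Solyc08g080090.3), the green flesh gene that starts chlorophyll loss, had 169, 124 and 102 CPM at 2 d, against 26.3, 37.5 and 30.4 CPM in control, a change of 2.14 ± 0.41 (edgeR adjusted p = 0.00435), and pheophytinase PPH rose by 1.38 ± 0.23 (edgeR adjusted p = 0.00144). The plastid regulator GLK1 was the one to fall (-1.86 ± 0.56, edgeR adjusted p = 0.0216) and was low throughout, with 0.549, 0.891 and 0.34 CPM at 2 d, against 3.01, 2.17 and 1.69 CPM in control. It lost its call without replicate 1 or 3 at 2 d or replicate 1 of control (edgeR adjusted p up to 0.0754). In the same list APRR2-like rose by 1.73 and GLK2 was not called. APRR2-like kept its call without any 1 of the 6 libraries (edgeR adjusted p up to 0.0409). In the carotenoid pathway 7 of 14 tested genes rose and 1 fell. PSY2 (Solyc02g081330.4), the phytoene synthase of green tissue, had 109, 108 and 109.7 CPM at 2 d, against 26.3, 26.5 and 27.6 CPM in control, a change of 2.09 ± 0.14 (edgeR adjusted p = 9.76e-06). The ripening form PSY1 rose by 0.90 ± 0.09 (edgeR adjusted p = 5.36e-05), while the beta-carotene hydroxylase CHYB1 fell, with 9.83, 6.76 and 11.7 CPM at 2 d, against 26.6, 22 and 24.5 CPM in control and a change of -1.31 ± 0.22 (edgeR adjusted p = 0.00122).

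Heat shock genes were far above their level in light-grown skin. The 169 genes drawn by description summed to 37309.9, 29672 and 28473 CPM at 2 d, against 8788, 8658 and 8733 CPM in control. Of 112 tested, 62 rose, 41 of them at least 2-fold, and 8 fell, shares of 55.4% and 7.14% against 21.7% and 23% of all genes. Heat shock proteins bind and refold damaged proteins, but words in the descriptions can also draw genes of other function. An HSP70 gene (Solyc03g117630.1, chromosome 3 of build SL4.0, bases 61175164 to 61177128, minus strand) had 2662, 1590.3 and 1567 CPM at 2 d, against 6.18, 8.23 and 6.68 CPM in control, a change of 8.18 ± 0.33 (edgeR adjusted p = 1.69e-06) or 289-fold. The small heat shock protein leer-sHSP (Solyc11g020330.1) had 1571, 1259 and 1322 CPM at 2 d, against 4.35, 12 and 6.45 CPM in control, a change of 7.58 ± 0.41 (edgeR adjusted p = 9.76e-06). A class I small heat shock gene (Solyc06g076520.1) reached 3712, 3114 and 3269.9 CPM at 2 d, against 263, 410.1 and 282 CPM in control, a change of 3.47 ± 0.19 (edgeR adjusted p = 3.54e-06). Every library at 2 d stood far above every control library for these genes.

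Other small heat shock genes had under 5 CPM in every control library and rose as well. They were a class IV gene (Solyc03g113930.3, 6.80 ± 0.65, edgeR adjusted p = 0.000213), small heat shock protein 1 (Solyc05g014280.4, 6.55 ± 0.44, edgeR adjusted p = 3.14e-05) and the class I genes Solyc12g042830.3 (6.37 ± 0.27, edgeR adjusted p = 2.35e-06) and Solyc02g093600.3 (6.36 ± 0.37, edgeR adjusted p = 1.58e-05). At 5 d the HSP70 gene had 199, 127 and 147 CPM and leer-sHSP 189, 132 and 184 CPM, between the other groups. The changes of 5 d over 2 d were -3.60 (edgeR adjusted p = 0.000139) and -3.02 (edgeR adjusted p = 0.00121). The gene with the largest gain in CPM of the whole table is described as a regulator of the BAG family of chaperone partners (Solyc01g095320.4). It had 11997, 11687 and 11883 CPM at 2 d, against 2437, 5639 and 3681 CPM in control, a change of 1.67 ± 0.27 (edgeR adjusted p = 0.00103), and its interval shares 1262 bases with a neighbour. Close copies within the heat shock families may share reads.

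Glutathione transferases, which conjugate toxins and carry flavonoids, had 12 of 43 genes higher and 8 lower. These shares of 27.9% and 18.6% lie near the 21.7% and 23% of all genes, but the family held some of the steepest gains. Solyc12g011310.2 had 1981, 1644 and 1409.7 CPM at 2 d, against 2.69, 9.02 and 4.39 CPM in control, a change of 8.36 ± 0.66 (edgeR adjusted p = 8.13e-05). Solyc06g009020.2 had 3453, 3331 and 2827 CPM at 2 d, against 634, 456 and 461 CPM in control, a change of 2.70 ± 0.27 (edgeR adjusted p = 8.26e-05). Solyc07g056510.3 rose by 8.33 ± 0.54 (edgeR adjusted p = 2.63e-05). None of them is the GST of pigment transport described above. As a contrast, the 191 tested genes of cytosolic ribosomal proteins were flat, with 21 higher, 24 lower and a median log2 change of 0.01. Their lower calls came to 8 to 17 when single libraries were left out.

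**Figure D3:**
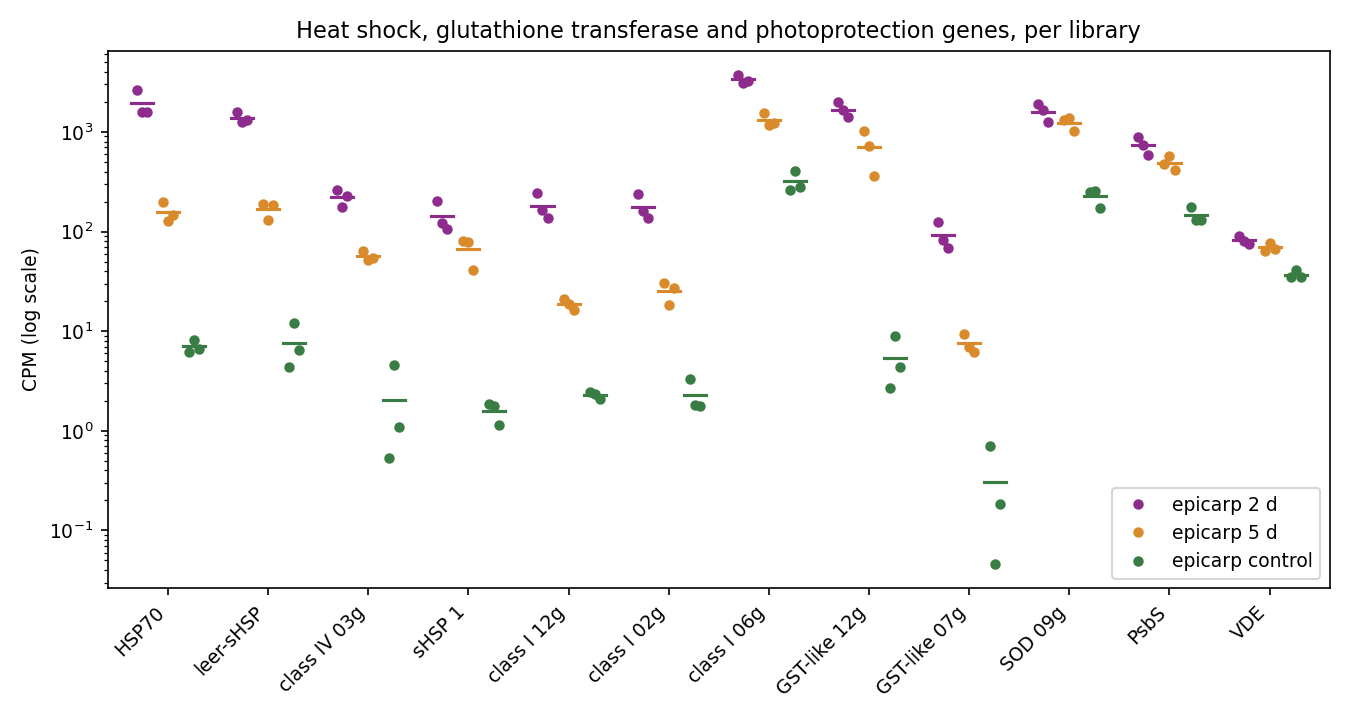
CPM (log axis) of 7 heat shock genes, 2 glutathione transferase genes, a superoxide dismutase gene, PsbS and VDE, 1 point per library and a bar at the mean of 3, in the order epicarp 2 d (purple), epicarp 5 d (orange) and epicarp control (green). The 2 d libraries lie above all control libraries in each gene, with the HSP70 gene at a log2 change of 8.18, and the 5 d means lie between.

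Cuticle genes stood far below their level in light-grown skin. Of 12 epidermis and cuticle genes listed, 11 were in the count table and 10 were tested, the regulator SHN1 having 0 reads in all 6 libraries. Of the tested, none rose and 9 fell, 7 of them at least 2-fold, and the median log2 change was -2.36. In all 10 genes the libraries at 2 d lay below all control libraries. Genes of cutin synthesis had few reads at 2 d. CD1 (Solyc11g006250.2, chromosome 11 of build SL4.0, bases 1043984 to 1046863, plus strand), which polymerises cutin outside the cell, had 7.91, 5.3 and 5.93 CPM at 2 d, against 2311, 859.7 and 1297 CPM in control, a change of -7.81 ± 2.45 (edgeR adjusted p = 0.0383). GPAT6 (Solyc09g014350.3), which joins fatty acids to glycerol, had 6.49, 3.71 and 7.88 CPM at 2 d, against 1431, 775 and 981 CPM in control, a change of -7.40 ± 2.25 (edgeR adjusted p = 0.0345). The fatty acid hydroxylase CYP86A69 (Solyc08g081220.1) had 5.76, 4.22 and 4.04 CPM at 2 d, against 1771, 1119.6 and 1179 CPM in control, a change of -8.11 ± 2.35 (edgeR adjusted p = 0.029). Control was 224-fold above 2 d in CD1, 169-fold in GPAT6 and 277-fold in CYP86A69. The 5 d libraries, which share in the estimate of the spread, had 2.29, 4.97 and 937 CPM of CD1, 1.34, 4.92 and 485 CPM of GPAT6 and 2.98, 4.83 and 743 CPM of CYP86A69, so that replicate 3 alone was near control. Without it in the fit the changes were -7.79 (edgeR adjusted p = 9.81e-05), -7.39 (edgeR adjusted p = 0.000133) and -8.10 (edgeR adjusted p = 1.48e-06). With it, each of the 3 lost its call when any 1 of the 6 libraries was left out (edgeR adjusted p up to 0.115 for CD1, 0.109 for GPAT6 and 0.0933 for CYP86A69).

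Wax and triterpenoid genes were also lower, by smaller log2 changes. CER6 (Solyc02g085870.3), which elongates wax precursors, had 218, 169 and 242 CPM at 2 d, against 948, 729.9 and 649 CPM in control, a change of -1.83 ± 0.34 (edgeR adjusted p = 0.00318). CER3 (Solyc03g117800.4), of alkane synthesis, had 90.9, 61.3 and 57.5 CPM at 2 d, against 255, 280.4 and 116 CPM in control, a change of -1.57 ± 0.43 (edgeR adjusted p = 0.0213). The triterpenoid synthase TTS2 (Solyc12g006520.3) had 60.1, 64.8 and 82.9 CPM at 2 d, against 579, 493 and 539.6 CPM in control, a change of -2.89 ± 0.54 (edgeR adjusted p = 0.00409), and the related TTS1 had a change of -0.45 ± 0.10 (edgeR adjusted p = 0.00625). Regulators of epidermal identity were lower too, with a change of -0.55 ± 0.09 (edgeR adjusted p = 0.000954) for CD2 and of -1.05 ± 0.35 (edgeR adjusted p = 0.0435) for MIXTA-like. The member not called, CYP86A68 (named, like TTS1, CD2 and MIXTA-like, after its values were seen), had 1.51, 0.0469 and 0.583 CPM at 2 d, against 30.5, 11.7 and 12.1 CPM in control, a change of -4.59 ± 1.57 (edgeR adjusted p = 0.0505). The count of the list moved with the libraries in the fit: 10 of 10 fell with the 6 libraries alone and 10 without replicate 3 at 5 d, but 4 or 5 when any single library of the 6 was left out. CER3 lost its call in 4 of these cases (replicates 2 and 3 at 2 d, replicates 1 and 2 of control, edgeR adjusted p up to 0.0734) and MIXTA-like in all 6 (up to 0.129).

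Words for cutin and wax in the descriptions drew 76 tested genes, of which 32 fell and 9 rose. The gene with the largest loss in CPM of the whole table is among them, a non-specific lipid-transfer protein (Solyc10g075070.3) with 1059.8, 1149 and 1522 CPM at 2 d, against 10736, 8409.6 and 7436 CPM in control, a change of -2.77 ± 0.42 (edgeR adjusted p = 0.00104). The members with the largest changes went both ways. Another non-specific lipid-transfer protein (Solyc01g081600.3) had 7.68, 1.27 and 6.42 CPM at 2 d, against 0 reads in the 3 control libraries, so it was at least 35.2-fold higher with control set to 3 reads per library (edgeR adjusted p = 0.00465). A GDSL esterase or lipase gene, of the family of CD1, was also higher: Solyc10g008810.4 had 0.549, 0.516 and 1.26 CPM at 2 d, against 0 reads in the 3 control libraries, at least 5.33-fold higher on the same bound (edgeR adjusted p = 0.00387). Other GDSL genes had few reads at 2 d. Solyc06g083650.3 had 0, 0.282 and 1.07 CPM at 2 d, against 111, 43 and 47.4 CPM in control (-7.17 ± 1.79, edgeR adjusted p = 0.0165). Solyc02g077330.3 had 2.1, 3.71 and 1.75 CPM at 2 d, against 393, 192 and 232 CPM in control (-6.69 ± 1.92, edgeR adjusted p = 0.0281). Solyc09g063060.3 had 0.0457, 0 and 0.0972 CPM at 2 d, against 8.97, 4.11 and 3.48 CPM in control (3 reads in all at 2 d, edgeR adjusted p = 0.00921). The groups were apart in each of these GDSL genes, but the call of Solyc02g077330.3 was lost without any 1 of the 6 libraries (edgeR adjusted p up to 0.0935) and that of Solyc06g083650.3 without replicate 1 or 2 at 2 d (up to 0.0622). An ERF gene described as WIN1-like (Solyc12g009490.4) is of the family of factors that switch on cuticle genes. It had 0.412, 0.141 and 0.681 CPM at 2 d, against 107, 63.9 and 68.5 CPM in control, a change of -7.53 ± 1.73 (edgeR adjusted p = 0.012).

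Outside all lists, the 2 genes with the lowest fitted changes among those that reached 10 CPM were all but silent at 2 d. A gene with a Bet v I domain (Solyc07g005370.5) had 0 reads in the 3 libraries at 2 d, against 18.8, 8.65 and 3.94 CPM in control (edgeR adjusted p = 0.000668). A lysine histidine transporter-like gene (Solyc10g055740.2) had 0, 0.0469 and 0 CPM at 2 d, against 29.6, 7.72 and 11.5 CPM in control (edgeR adjusted p = 0.00118). Both kept their call without any 1 of the 6 libraries. A further 7 of the lowest genes, given next, had their highest 5 d level in replicate 3. A GMC oxidoreductase (Solyc06g035580.3) had 2.47, 3.94 and 3.89 CPM at 2 d, against 1656, 716 and 951 CPM in control, a change of -8.27 ± 2.24 (edgeR adjusted p = 0.0224), and a second (Solyc03g121600.4) changed by -8.62 ± 2.04 (edgeR adjusted p = 0.0134). The wax ester synthase-like O-acyltransferase WSD1 (Solyc12g010590.4) had 0.0914, 0.188 and 0.0972 CPM at 2 d, against 56.9, 32.5 and 40.6 CPM in control, a change of -8.30 ± 2.44 (edgeR adjusted p = 0.0306). Long chain acyl-CoA synthetase 4 (Solyc01g109180.4) had 2.65, 1.69 and 2.43 CPM at 2 d, against 304, 215 and 234 CPM in control (-6.73 ± 1.91, edgeR adjusted p = 0.0268), and its interval shares 3004 bases with another gene. Cytochromes P450 Solyc11g007540.2 and Solyc05g055400.5 changed by -8.42 ± 1.99 (edgeR adjusted p = 0.0134) and -5.86 ± 1.36 (edgeR adjusted p = 0.0126). An aquaporin-like X-intrinsic protein (Solyc10g054840.2) had 2.88, 2.16 and 4.91 CPM at 2 d, against 473, 364 and 339 CPM in control, a change of -6.82 ± 1.88 (edgeR adjusted p = 0.0242). Each of the 7 lost its call without replicate 1 or without replicate 2 at 2 d. Solyc06g035580.3, Solyc03g121600.4, Solyc11g007540.2 and Solyc10g054840.2 also lost it without replicate 3 at 2 d, the last of them without replicate 1 of control too. Solyc12g010590.4 and Solyc01g109180.4 lost it without any 1 of the 6 libraries (edgeR adjusted p up to 0.0979, the highest of the 7). Without replicate 3 at 5 d in the fit the changes of Solyc06g035580.3 and Solyc12g010590.4 were -8.26 (edgeR adjusted p = 0.000923) and -8.29 (edgeR adjusted p = 4.06e-06).

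**Figure D4:**
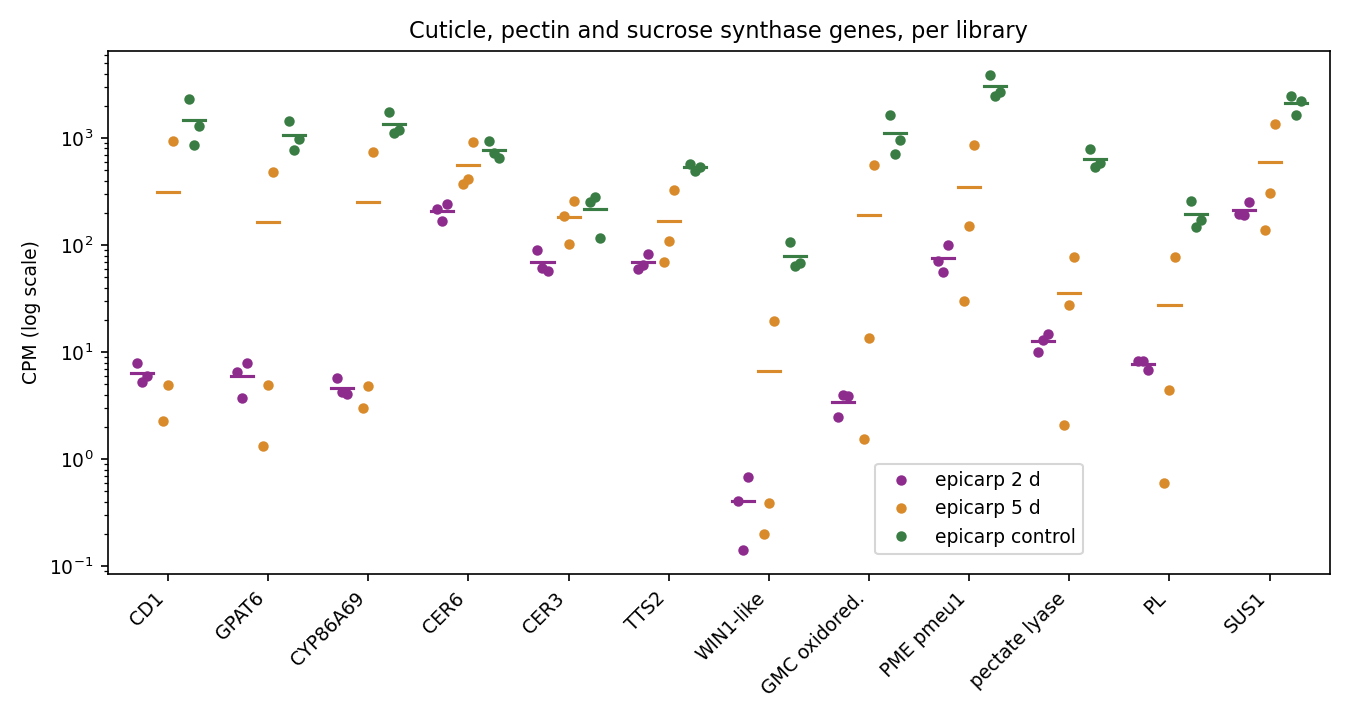
CPM (log axis) of 6 cuticle genes, the WIN1-like gene, a GMC oxidoreductase, 3 pectin genes (pectin methylesterase pmeu1, a pectate lyase and PL) and SUS1, 1 point per library and a bar at the mean of 3, in the order epicarp 2 d (purple), epicarp 5 d (orange) and epicarp control (green). The 2 d libraries lie below all control libraries in each gene, and the 5 d libraries are widely spread, with replicate 3 the highest.

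Pectin and wall enzymes were also below light-grown skin. Of 33 tested pectin enzyme genes, 15 fell, each at least 2-fold, and 2 rose. A pectate lyase gene (Solyc05g014000.5), whose product cuts pectin, had 10.1, 13.1 and 14.9 CPM at 2 d, against 785, 538 and 586 CPM in control, a change of -5.59 ± 1.14 (edgeR adjusted p = 0.00739). The fruit-softening pectate lyase PL (Solyc03g111690.4) had 8.32, 8.35 and 6.81 CPM at 2 d, against 259, 149 and 172 CPM in control, a change of -4.56 ± 1.46 (edgeR adjusted p = 0.0413). A pectinesterase (Solyc06g009190.5) changed by -5.54 ± 0.89 (edgeR adjusted p = 0.00245), and pectin methylesterase pmeu1 (Solyc03g123630.4), outside the list, had 71, 56.4 and 100.1 CPM at 2 d, against 3923, 2488 and 2712 CPM in control, a change of -5.27 ± 1.20 (edgeR adjusted p = 0.0118). In the other direction, the pectinesterase Solyc01g098940.3 had 23.1, 41.3 and 31.1 CPM at 2 d, against 0, 0 and 0.0458 CPM in control, the control value being 1 read in 3 libraries, a ratio of 1972 (95% counting interval 353 to 77909). The other that rose was a pectate lyase (Solyc02g093580.5), with 9.69, 3.42 and 1.56 CPM at 2 d, against 0.107, 0.185 and 0.0458 CPM in control. Among 37 genes of wall loosening, 13 fell and 7 rose, shares of 35.1% and 18.9% beside 23% and 21.7% of all genes. Xyloglucan endotransglucosylase-hydrolase 7 (Solyc02g091920.3) had 1.42, 1.27 and 4.38 CPM at 2 d, against 482, 248 and 300.4 CPM in control, a change of -7.14 ± 1.80 (edgeR adjusted p = 0.0172). Endoglucanase Solyc07g049300.3 had 0.457, 0.188 and 0.194 CPM at 2 d, against 20.9, 20.7 and 17.4 CPM in control (-6.03 ± 0.87, edgeR adjusted p = 0.00093), and the expansins 6 and 12, which loosen walls without cutting them, had 0, 0.0469 and 0.146 CPM at 2 d, against 2.52, 1.02 and 2.56 CPM in control for Solyc10g086520.2 and 0.0914, 0.141 and 0 CPM at 2 d, against 1.56, 1.43 and 1.24 CPM in control for Solyc05g007830.3. Both fell, with changes of -4.82 ± 0.87 (edgeR adjusted p = 0.0016) and -4.00 ± 0.81 (edgeR adjusted p = 0.00293). Xyloglucan endotransglucosylase-hydrolase 4 (Solyc11g065600.2) had 0 reads in control and 7.73, 3.24 and 6.47 CPM at 2 d, at least 39.9-fold higher with control set to 3 reads per library. PL lost its call without any 1 of the 6 libraries (edgeR adjusted p up to 0.117), and xyloglucan endotransglucosylase-hydrolase 7 without replicate 1 or 2 at 2 d (up to 0.0664).

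Genes of sugar handling moved in both directions. Of 12 tested genes, 4 rose and 6 fell. Fruit sucrose synthase SUS1 (Solyc12g009300.3), which splits incoming sucrose, had 194, 190.2 and 252 CPM at 2 d, against 2473, 1656 and 2211 CPM in control, a change of -3.25 ± 0.80 (edgeR adjusted p = 0.0151). SUS3 (Solyc07g042550.3) went up, with 336, 299 and 299 CPM at 2 d, against 85.3, 74.6 and 86.3 CPM in control, a change of 1.99 ± 0.13 (edgeR adjusted p = 6.28e-06), and vacuolar invertase TIV1 (Solyc03g083910.6) rose by 2.61 ± 0.28 (edgeR adjusted p = 0.000187). The sucrose carrier SUT1 (Solyc11g017010.2), which loads sucrose across the plasma membrane, had 81.4, 66.6 and 63.4 CPM at 2 d, against 3.65, 5.73 and 7.5 CPM in control, a change of 3.71 ± 0.32 (edgeR adjusted p = 7.26e-05), while the tonoplast carrier SUT4 fell, with a change of -2.29 ± 0.26 (edgeR adjusted p = 0.000122). The starch gene AGPL1 had a change of -1.19 ± 0.09 (edgeR adjusted p = 1.69e-05). Among 13 transporter genes drawn by description, a SWEET gene (Solyc05g024260.3) had 486, 420.3 and 209.9 CPM at 2 d, against 11.6, 26.7 and 13.4 CPM in control, a change of 4.51 ± 0.73 (edgeR adjusted p = 0.00261), and sugar transporter protein 11 (Solyc06g054270.3) had 89.5, 83.3 and 65.3 CPM at 2 d, against 1.34, 2.77 and 4.39 CPM in control, a change of 4.86 ± 0.35 (edgeR adjusted p = 3.41e-05). These were the 2 that rose, and 4 fell, the largest being sugar transporter protein 4 (Solyc04g074070.2, -4.38 ± 1.23, edgeR adjusted p = 0.017). SUS1 lost its call without replicate 1 or 2 at 2 d (edgeR adjusted p up to 0.0568), and sugar transporter protein 4 without replicate 2 or 3 at 2 d (up to 0.0579).

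Steroidal glycoalkaloids are bitter defence compounds of green tomato fruit. Of 7 tested genes, 5 fell and 1 rose. The glycosyltransferase GAME18 (Solyc07g043500.1) had 1.92, 6.05 and 4.33 CPM at 2 d, against 86.5, 71.1 and 53.9 CPM in control, a change of -4.04 ± 0.54 (edgeR adjusted p = 0.000857). GAME1, which adds the first sugar, changed by -2.07 ± 0.22 (edgeR adjusted p = 8.13e-05), GAME4 by -1.81 ± 0.11 (edgeR adjusted p = 4.92e-06) and GAME11 by -1.21 ± 0.25 (edgeR adjusted p = 0.00506). The early cytochrome P450 GAME7 was the one to rise, with 208, 219.7 and 180.1 CPM at 2 d, against 62.9, 58.8 and 65.4 CPM in control and a change of 1.77 ± 0.25 (edgeR adjusted p = 0.000691). Nitrogen genes were split, 5 higher and 6 lower of 15, and 1 to 3 were higher when any single library was left out. Nitrate reductase (Solyc11g013810.3) had 0.503, 0.563 and 0.583 CPM at 2 d, against 28.7, 13 and 12.7 CPM in control, a change of -4.97 ± 0.70 (edgeR adjusted p = 0.000737), and nitrite reductase 2 changed by -1.04 ± 0.15 (edgeR adjusted p = 0.000489). Thiamine thiazole synthase (Solyc07g064160.3), of vitamin B1 synthesis, is among the 10 largest losses in CPM, with 652, 573 and 815 CPM at 2 d, against 4229.6, 4941 and 5301 CPM in control, a change of -2.76 ± 0.22 (edgeR adjusted p = 1.84e-05). At 5 d it had 3526, 4198 and 2464 CPM, a change from control of -0.41 (edgeR adjusted p = 0.141).

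Ripening genes did not move as a block. Of 19 tested, 7 rose and 5 fell. The ethylene receptor NR (Solyc09g075440.4) had 309, 307 and 289 CPM at 2 d, against 84.1, 93.8 and 89.3 CPM in control, a change of 1.83 ± 0.10 (edgeR adjusted p = 2.49e-06). The ethylene-responsive gene E8 (Solyc09g089580.4) had 498, 253 and 127 CPM at 2 d, against 13.7, 28.5 and 27.1 CPM in control, a change of 3.74 ± 0.80 (edgeR adjusted p = 0.00899), and its libraries at 2 d were widely spread. The NAC factor NOR (Solyc10g006880.3) had 9.28, 10.1 and 4.04 CPM at 2 d, against 1.34, 0.416 and 0.778 CPM in control, a change of 3.29 ± 1.06 (edgeR adjusted p = 0.0385), lost without any single library but replicate 3 at 2 d (edgeR adjusted p up to 0.121). Lower were PL, described above, the ethylene synthesis gene ACS4, with 0.412, 0.563 and 1.02 CPM at 2 d, against 2.31, 6.98 and 4.44 CPM in control, and, named after their values were seen, CNR (-1.43 ± 0.19, edgeR adjusted p = 0.000327), FUL2 (-1.39 ± 0.09, edgeR adjusted p = 8.91e-06) and TAGL1 (-0.74 ± 0.09, edgeR adjusted p = 0.000171). Another ethylene synthesis gene, ACS2, went the other way. Its change was 3.81 to 7.56 when single libraries were left out (edgeR adjusted p up to 0.0273). Of 13 tested ethylene synthesis genes drawn by description, 4 rose and 3 fell. These shares were 30.8% and 23.1%, beside 21.7% and 23% of all genes. That list summed to 1603 to 1997 CPM at 2 d, against 1030 to 1138 CPM in control. PG2a, the polygalacturonase of ripe fruit, had 0.0914, 0.61 and 0.34 CPM at 2 d, against 0 reads in the 3 control libraries, and its change was not called. The summed level of the 20 ripening genes was 1406 to 1843 CPM at 2 d, against 1626 to 1778 CPM in control.

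Some clock genes moved. The labels give no hour of collection, and its part in any result was not tested. LHY (Solyc10g005080.3), a morning gene, had 135, 136 and 106 CPM at 2 d, against 43.8, 28.3 and 21.3 CPM in control, a change of 2.08 ± 0.25 (edgeR adjusted p = 0.000303). The evening gene LUX (Solyc06g005680.4) had 0, 0.0938 and 0.0486 CPM at 2 d, against 1.5, 4.53 and 2.56 CPM in control, a change of -5.69 ± 0.86 (edgeR adjusted p = 0.000593), and PRR_03g081240 (Solyc03g081240.3) had 3.7, 1.64 and 3.65 CPM at 2 d, against 10.9, 24.4 and 27 CPM in control, a change of -2.72 ± 0.38 (edgeR adjusted p = 0.000573). The groups were apart in all 3 genes. Of 11 tested clock genes, 2 rose and 4 fell, shares of 18.2% and 36.4% beside 21.7% and 23% of all genes. The others called were ELF3 (0.72 ± 0.20, edgeR adjusted p = 0.0161), GI_04g071990 (-0.89 ± 0.11, edgeR adjusted p = 0.000191) and PRR_10g005030 (-0.65 ± 0.13, edgeR adjusted p = 0.00275). ELF3 lost its call without replicate 2 at 2 d (edgeR adjusted p = 0.0586). At 5 d LHY was 0.39 from control (edgeR adjusted p = 0.245).

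Among markers of other tissues, the vascular list was low in reads and the seed list was not. Of 30 genes with vascular words, 18 had 0 reads in all 6 libraries, and the list summed to 255 to 272 CPM at 2 d, against 171 to 195 CPM in control. Of 9 tested, 3 rose and 2 fell. Xylem cysteine proteinase 1 (Solyc04g080873.2) had 195, 204 and 216 CPM at 2 d, against 84.3, 103 and 81.6 CPM in control, a change of 1.26 ± 0.14 (edgeR adjusted p = 0.00012), and its interval shares 261 bases with a neighbour. Of 105 genes with seed words, 52 had 0 reads throughout. The list summed to 8014 to 9852 CPM at 2 d, against 10052 to 13808 CPM in control, and 13 of 30 tested members rose and 4 fell, with 6 to 11 rising when any single library was left out. These words also draw stress proteins of the late embryogenesis class, such as Solyc07g053360.5, with 12.1, 11.6 and 12.2 CPM at 2 d, against 0.967, 0.0925 and 1.19 CPM in control. That gene holds little of the sum of the seed list, and the genes that hold most of it are not named here. The part of such tissue in the results was not tested.

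The genes outside the lists with the highest changes had few or no reads in control. Threonine deaminase (Solyc09g008670.3), an enzyme of isoleucine synthesis with a role in defence in tomato, had 18.2, 28.3 and 13.4 CPM at 2 d, against 0 reads in the 3 control libraries, at least 137-fold higher with control set to 3 reads per library. Gibberellin 2-oxidase (Solyc01g058030.2), which inactivates the growth hormone gibberellin, had 11.5, 15.2 and 18.2 CPM at 2 d, against 0 reads in the 3 control libraries, at least 103-fold higher on the same floor. A hexosyltransferase gene (Solyc02g084980.3) had 249, 409 and 293 CPM at 2 d, against 0.376, 0.0925 and 0.458 CPM in control, a change of 10.06 ± 0.91 (edgeR adjusted p = 0.000196). Monoterpenoid synthase 2 (Solyc01g105880.4) had 76.2, 82.8 and 134 CPM at 2 d, against 0.0537, 0.416 and 0.0458 CPM in control, a change of 9.13 ± 0.53 (edgeR adjusted p = 1.41e-05). A gene described as hypoxia-responsive (Solyc06g050870.3) had 78.1, 69.2 and 73 CPM at 2 d, against 0, 0 and 0.0915 CPM in control, with 2 reads in control, a ratio of 2282 (95% counting interval 631 to 18847). Glutamate decarboxylase (Solyc01g005000.3), which makes GABA, had 36.7, 68.9 and 32.1 CPM at 2 d, against 0.0537, 0.555 and 0.229 CPM in control, a change of 7.36 ± 0.60 (edgeR adjusted p = 5.54e-05). At 5 d it had 0.745, 0.193 and 0.615 CPM. The tonoplast dicarboxylate transporter (Solyc11g012360.2), which moves malate into the vacuole, had 67.8, 47.8 and 37.2 CPM at 2 d, against 0.269, 0.509 and 0.0915 CPM in control, a change of 7.50 ± 0.98 (edgeR adjusted p = 0.000959), and 130.4, 73.1 and 21.6 CPM at 5 d.

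Among the other genes with the largest differences in reads, metallothionein-like protein type 2 (Solyc09g010800.5.1), a metal-binding protein, had 6456, 6906 and 6583 CPM at 2 d, against 3543, 4057 and 4369 CPM in control, a change of 0.81 ± 0.18 (edgeR adjusted p = 0.00481). A DnaJ gene (Solyc05g055160.3), of the co-chaperones, had 1527, 1874 and 1662 CPM at 2 d, against 4098, 4255 and 4155 CPM in control and fell, with a change of -1.24 ± 0.12 (edgeR adjusted p = 4.88e-05). Pectin methylesterase 1 (Solyc07g064170.3) had 568, 710.00 and 934 CPM at 2 d, against 3493, 4509 and 4884 CPM in control, a change of -2.48 ± 0.30 (edgeR adjusted p = 0.000258). The pathogenesis-related gene STH-2-like (Solyc09g090980.3) had 853, 924 and 1069 CPM at 2 d, against 6312, 5348 and 4876 CPM in control, a change of -2.47 ± 0.31 (edgeR adjusted p = 0.000299), and a peroxidase (Solyc02g079500.4) had 261, 332 and 386 CPM at 2 d, against 3081, 1875 and 2442 CPM in control, a change of -2.85 ± 0.53 (edgeR adjusted p = 0.00395). Groups were apart in these genes.

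Among aquaporin genes, which encode water channels, more rose than fell. Of 18 tested, 8 rose, 1 fell and 9 were not called. The aquaporin-like X-intrinsic protein Solyc10g054840.2, which was lower at 2 d, is outside this list. Plasma membrane intrinsic protein 2.6 (Solyc11g069430.2) had 1058, 907 and 795 CPM at 2 d, against 178, 198 and 282 CPM in control, a change of 2.14 ± 0.17 (edgeR adjusted p = 2.26e-05), and tonoplast intrinsic protein 1.1 (Solyc06g074820.3) had 91.8, 44.5 and 51.8 CPM at 2 d, against 2.36, 2.22 and 1.46 CPM in control, a change of 5.03 ± 0.47 (edgeR adjusted p = 0.000122). The lignin and hydroxycinnamate list, which draws on the same phenylpropanoid precursors as the pigments, had 9 genes higher and 4 lower of 25, with a summed level of 3617, 4143 and 4031 CPM at 2 d, against 1512, 1399.6 and 1491 CPM in control. Wound and proteinase inhibitor genes had 7 higher and 12 lower of 48. Those shares of 14.6% and 25% stand beside 21.7% and 23% of all genes, so the lower share was near the background.

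Families of transcription factors moved in both directions, beside 21.7% higher and 23% lower of all genes. Among MYB genes 8 of 82 rose and 19 fell. Among bHLH genes 19 of 67 rose and 16 fell. Among ERF genes 12 of 54 rose and 20 fell, and among WRKY genes 7 of 38 rose and 11 fell. NAC genes were even, with 7 each way of 37. R2R3MYB transcription factor 58 (Solyc11g073120.2) had 17.6, 9.2 and 10 CPM at 2 d, against 0, 0.185 and 0.32 CPM in control, a change of 6.15 ± 0.65 (edgeR adjusted p = 0.000147). Another MYB gene (Solyc01g094360.3) had 7.41, 8.12 and 10.8 CPM at 2 d, against 74.3, 75.8 and 65 CPM in control, a change of -2.97 ± 0.28 (edgeR adjusted p = 9.98e-05). In the MATE transporters, the family of the anthocyanin permease, 7 of 43 rose and 17 fell.

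**Figure D5:**
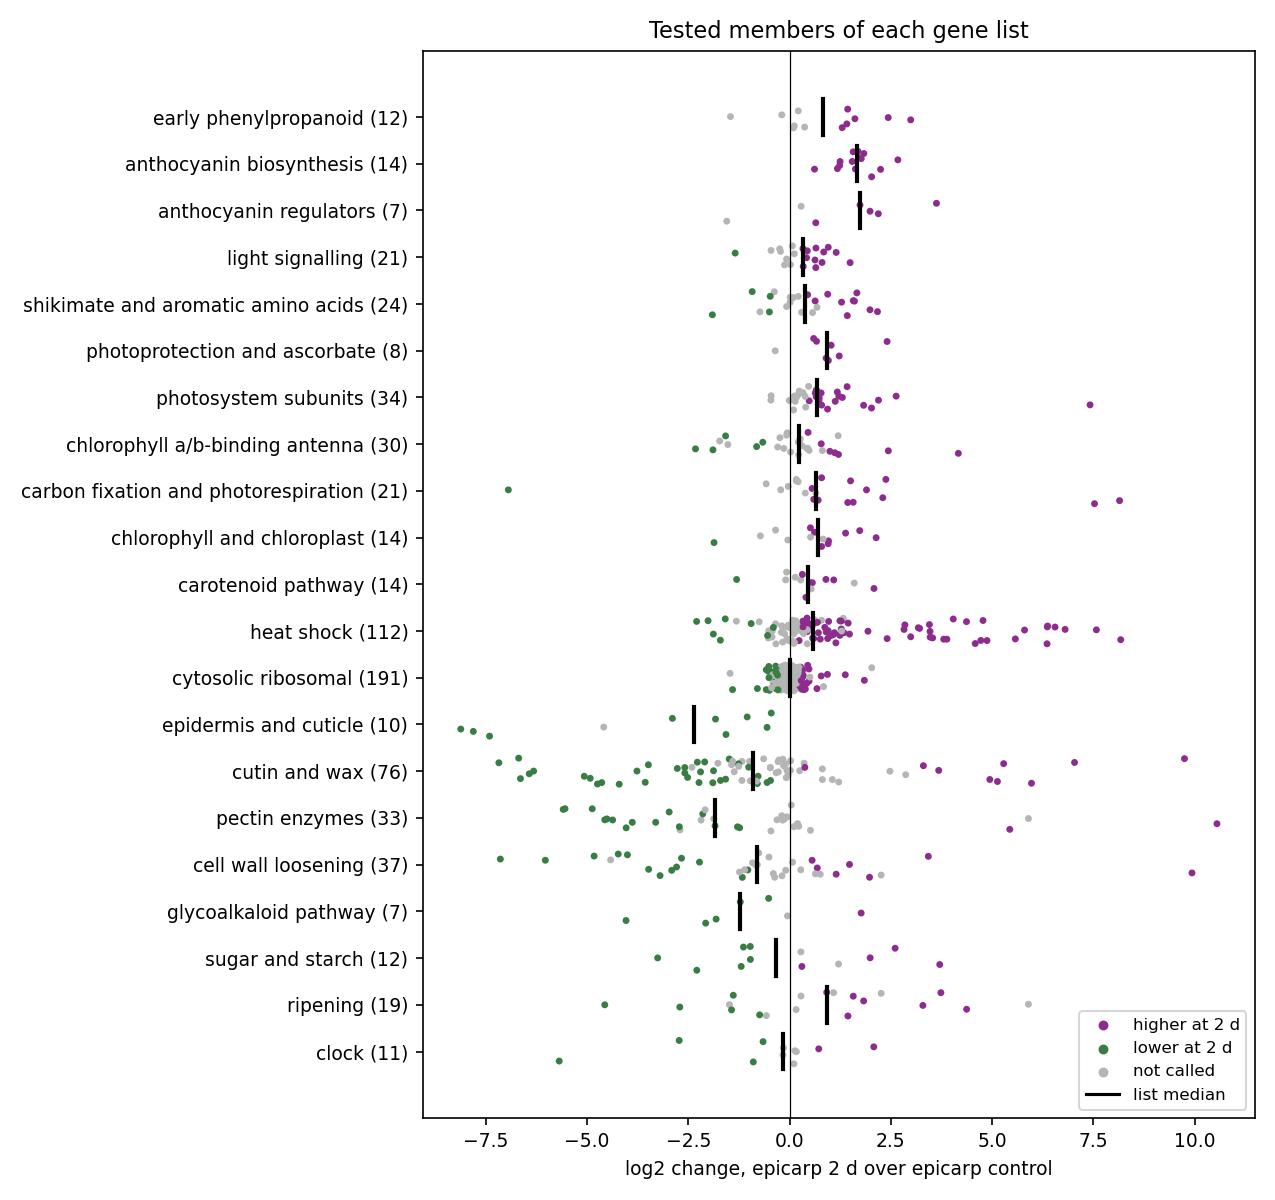
Log2 change (epicarp 2 d over epicarp control) of each tested member of 21 gene lists, the number of members in brackets, coloured by its call, with a black bar at the list median. The anthocyanin biosynthesis members all lie above 0 (median 1.66), the epidermis and cuticle members all lie below 0 (median -2.36), and cytosolic ribosomal genes centre on 0.01.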

How the data were processed

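RNA-seq libraries of epicarp and mesocarp (8 groups of 3) were sequenced as pairs of 150 base reads, per the labels' protocols. The submitters' processing notes name Trimmomatic 0.39, featureCounts and DESeq2; no source used here gives the aligner or the strand setting. The authors deposited read counts per gene interval of SL4.0, introns included, and a TPM table that holds F3'5'H. In the count table, 2 columns could not be tied to a sample and were not used. Neither belongs to the skin groups compared.

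From the deposited counts, genes passing filterByExpr were tested with edgeR 4.0.16 (TMM scaling, robust quasi-likelihood, 9 libraries: epicarp 2 d, 5 d and control; 17945 genes, adjusted p under 0.05). The epicarp 0 d group stayed out of this fit. Deposited TPM was tested as log2(TPM + 1) with limma 3.58.1. CPM is counts over the library total. On simulated counts of the same 9 libraries, 49 or 50 genes were changed at each fold size among 17723 genes. Of these, 10% of 1.5-fold, 65.3% of 2-fold and 90% of 8-fold changes were recovered, and 11 of 134 calls were false. Far more genes (8026) were called in the data. The adjusted p depends on the share of changed genes, so these rates do not carry over to the data. Replicate numbers did not pair the samples.

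Named genes could be any pigment or light-signalling member, up to 6 of each other list by size of change, the 20 highest and 20 lowest outside the lists with at least 10 CPM, and the 10 largest gains and losses in CPM. The comparison and the 44 gene lists (13 by gene, 31 by words in the descriptions) were chosen with earlier results of these data known. Antisense or overlapping genes cannot be told apart without strand.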

Additional observations from a re-analysis of the deposited data

Results flagged for a closer look

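F3'5'H also carried a signal in the flesh, outside the skin comparison. Its TPM was 769, 833 and 845 in mesocarp lit for 2 d (mean 816 ± 41.1, SD, n = 3), against 0.61, 0.541 and 0.929 in mesocarp control. It was singled out as a signal above the control level in libraries that the skin comparison does not use. The cause was not tested.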

How the results depend on the processing

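Of 375 genes followed singly (349 to 375 fitted, by alternative), no called one changed direction under any alternative run. Counts of calls moved with the samples in the fit. With all 4 epicarp groups 2551 genes were higher, and with all groups of both tissues 2336 were higher and 2378 lower (4714 called). Requiring a 2-fold change left 3520 calls, 1461 higher and 2059 lower. Light signalling had 7 and 5 higher members in those 2 larger fits, photosystem subunits 11 and 10, epidermis and cuticle 5 lower members with all 4 epicarp groups, and cutin and wax 16 lower members with both tissues. The larger fits bring in the 0 d libraries, and the cause was not tested.

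Leaving out each of the 6 libraries gave 6371 to 7099 calls (3193 to 3653 higher, 3150 to 3446 lower), 13 to 14 higher anthocyanin biosynthesis genes, 5 regulators, 6 early phenylpropanoid genes, 9 to 10 light-signalling genes, 56 to 65 heat shock genes and 17 to 21 photosystem genes, with 13 to 14 lower pectin genes, 22 to 28 lower cutin and wax genes and 4 to 5 lower epidermis and cuticle genes. F3'5'H ranged from 1.05 to 1.18 on the log2 scale and, at 1.05, missed the threshold without replicate 2 at 2 d. Without replicate 3 at 5 d, an alternative chosen after seeing the data, 4300 genes were higher and 4315 lower.

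Other tools and scalings kept the totals over all genes within 1.5 times: DESeq2 gave 4259 higher and 4169 lower, limma on TPM 3437 and 4291, RLE scaling 4084 and 3963, upper-quartile scaling 3613 and 4388, and the 6 libraries alone 4165 and 4296. Of 81 counts of list members, 1 moved past 1.5 times with limma on TPM (cutin and wax, 5 higher members) and 1 with upper-quartile scaling (thiamine, 0 higher members). With the replicate number as a block 3709 genes were higher and 3975 lower, but same-numbered libraries did not deviate together (correlations 0.0552, 0.0662 and -0.0721), so the numbers give no pairing. Of the 375 genes followed singly, 82 lost their call with both tissues, 25 to 45 without any one of the 6 libraries, 14 under the block and 11 with DESeq2. Depth limits statements on genes near 0.137 to 0.161 CPM.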
